A study of Mus musculus with 15 samples.

Results

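Heat shock proteins fold and refold other proteins, and 10 of their genes were followed here by name in RNA-seq of group 2 innate lymphoid cells (ILC2s) and of their bone marrow precursors (ILC2p): Hspa1a, Hspa1b, Hsph1, Dnajb1, Hsp90aa1, Hsp90ab1, Hspa8, Hspa5, Hspd1 and Hspe1. They are 10 of the 24089 gene symbols in the count tables, each has 1 entry, and all 10 passed the filter on low counts in each of the 7 comparisons. The study asked which genes depend on TGF-β signaling, with 15 libraries from C57BL/6 Tgfbr2 f/f ER-Cre+ mice, treated at 8 to 12 weeks of age for 5 days with sunflower oil (WT) or with tamoxifen at 1 mg/d (Tgfbr2-/-). All groups thus carried the floxed alleles and ER-Cre, whose promoter is not given in the sources used here, so oil against tamoxifen and intact against deleted Tgfbr2 cannot be told apart.

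LP ILC2s were sorted by surface markers from the intestinal lamina propria 1 day after the last treatment, in 4 WT and 3 Tgfbr2-/- libraries. BM ILC2p were sorted as CD45.2+ Lin- CD127+ α4β7+ CD25+ cells from irradiated CD45.1 recipients of mixed bone marrow 6 weeks after transfer, in 4 WT and 4 Tgfbr2-/- libraries. Each cell type was sequenced in 2 experiments with 2 libraries per genotype, except that experiment 2 held 1 Tgfbr2-/- ILC2 library. Between 12167066 and 32114265 reads fell on genes in ILC2 libraries, and between 10957021 and 35961215 in ILC2p libraries. Levels are given as CPM, read counts scaled by library size and TMM factors over all 15 libraries, except where genes are compared with each other, where the deposited RPKM, a level per length, is used.

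Tgfbr2, the deleted gene, did not separate the labels: its level ran from 150 to 262 CPM across WT ILC2s and from 96.6 to 206 CPM across Tgfbr2-/- ILC2s, and from 0.714 to 233 CPM and 30.9 to 219 CPM across the corresponding ILC2p libraries. Its counts cover the full transcript. Il1rl1, the gene of the IL-33 receptor ST2 and 1 of 11 ILC2 markers, did separate them, at 71.3 to 219 CPM in WT against 51.1 to 56.9 CPM in Tgfbr2-/- ILC2s and at 943 to 1216 CPM against 220 to 355 CPM in ILC2p. The study reported it as reduced from these same data, so it is no separate check of the labels. Klrg1 and Il5 were also lower without overlap in Tgfbr2-/- ILC2s, and the other markers overlapped. In ILC2p Gata3, Il7r, Il2ra, Areg, Id2 and Ly6a were lower without overlap as well. Gata3, the transcription factor that defines ILC2s, was the most abundant of these markers in all 7 ILC2 libraries and all 4 WT ILC2p libraries, whereas Id2 was in 3 of 4 Tgfbr2-/- ILC2p libraries. The 10 neutrophil markers summed to 78986 to 95060 CPM in the 4 Tgfbr2-/- ILC2p libraries, led by S100a8 (23800 to 29610 CPM), against 795 to 1563 CPM, led by Mpo, in the 4 WT ILC2p libraries, and none of the 10 was under 1 CPM in any ILC2p library. In the 7 ILC2 libraries the same markers summed to 0.0481 to 4.05 CPM. Other marker lists moved in the same 4 Tgfbr2-/- ILC2p libraries. The 9 macrophage and dendritic cell markers found in the files summed to 12022 to 14249 CPM there, led by Lyz2, against 549 to 1578 CPM in WT ILC2p, led by Cd74, with 4 to 6 of the 9 under 1 CPM in each library. Lyz2 alone was at 10887 to 12560 CPM in Tgfbr2-/- ILC2p. Cd68 was higher there too, at 71.1 to 224 CPM against at most 17.1 CPM in WT, while C1qa, C1qb and Itgax stayed under 1 CPM. The 6 mast cell and basophil markers summed to 1228 to 1719 CPM, led by Prss34, against 217 to 310 CPM. Prss34, Mcpt8 and Fcer1a were higher in each Tgfbr2-/- ILC2p library than in any WT one. Kit and Cpa3 overlapped between the genotypes, and Ms4a2 was under 1 CPM in each ILC2p library. The 6 NK cell and ILC1 markers summed to 94.5 to 428 CPM in Tgfbr2-/- against 0.446 to 37.4 CPM in WT ILC2p. The ILC2 markers summed lower, to 3672 to 5419 CPM against 7845 to 11769 CPM. The sum of the 7 T cell markers was also lower, at 89.6 to 217 CPM against 334 to 497 CPM. It was mostly Lat, at 88.9 to 172 CPM against 300 to 497 CPM, a gene also at 272 to 369 CPM in WT ILC2s. Among the rest, Cd3d, Cd3e and Trat1 reached higher maxima in Tgfbr2-/- ILC2p, and Cd3g, Cd4 and Cd8a lower ones. The lineage antibodies stated for the staining of ILCs include CD11b and Gr-1, surface proteins of neutrophils. How far the gate removed cells that carry neutrophil RNA was not tested. Whether the sort or the labels of these libraries are other than stated was not tested. Single genes were also missing from single ILC2p libraries. Where the remaining libraries of that cell type had a gene at 50 CPM or more by their median, an ILC2p library held 1.56% to 14.2% of such genes under 1 CPM and an ILC2 library at most 0.0285%. In these bulk samples, fewer cells of a type and less RNA per cell cannot be told apart.

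Chaperones of the HSP70 family hold unfolded stretches of protein in cycles of ATP binding and hydrolysis, which HSP40 proteins such as the product of Dnajb1 start and nucleotide exchange factors such as the product of Hsph1 end. Clients then pass to HSP90 or fold alone, while the mitochondrion has its own folding chamber, built from the products of Hspd1 and Hspe1. Under heat or other protein damage, HSF1 binds repeats of the element nGAAn and turns on the cytosolic set, and stress in the endoplasmic reticulum (ER) turns on Hspa5 through its own promoter elements.

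These elements can be read in the promoters of the 10 genes. RefSeq windows (GRCm38.p6, 250 bases before to 50 after each start) matched 7 of the 10 by symbol, in 10 windows; Hspa8, Hsp90aa1 and Hsp90ab1 were not matched. A heat shock element of 3 units (GAA, TTC and GAA, or TTC, GAA and TTC, with 2 bases of any kind between units, which covers both strands) was in 0.603% of 32851 promoter windows. An element of 2 such units, which also lies inside every 3-unit element, was in 15.1%. An ER stress element (CCAAT, 9 bases of any kind and CCACG, or the same on the other strand, CGTGG and ATTGG) was in 0.119%. The 150 bases before the start are shown 5′ to 3′ for 5 genes whose windows hold these elements, which are in capitals:
Hspa1a (chr17:34972157-34972306, minus strand): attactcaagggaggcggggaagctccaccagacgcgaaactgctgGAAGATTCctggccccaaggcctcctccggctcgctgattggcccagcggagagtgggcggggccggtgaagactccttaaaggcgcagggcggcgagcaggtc
Hspa1b (chr17:34959239-34959388, minus strand): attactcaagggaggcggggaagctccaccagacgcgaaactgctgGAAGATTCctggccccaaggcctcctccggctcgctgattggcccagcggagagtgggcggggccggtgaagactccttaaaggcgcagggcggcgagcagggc
Hsph1 (chr5:149636337-149636486, minus strand): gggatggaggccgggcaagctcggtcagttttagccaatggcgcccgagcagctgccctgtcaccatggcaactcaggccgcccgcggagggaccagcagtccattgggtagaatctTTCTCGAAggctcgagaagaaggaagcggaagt
Hspe1 (chr1:55087998-55088147, plus strand): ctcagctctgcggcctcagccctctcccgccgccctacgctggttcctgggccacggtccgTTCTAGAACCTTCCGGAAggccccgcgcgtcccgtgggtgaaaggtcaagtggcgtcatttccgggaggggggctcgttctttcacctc
Hspa5 (chr2:34771940-34772089, plus strand): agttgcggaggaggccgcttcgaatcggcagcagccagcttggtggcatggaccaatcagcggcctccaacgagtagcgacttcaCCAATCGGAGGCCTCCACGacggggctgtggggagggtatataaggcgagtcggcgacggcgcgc
The Hspa1a and Hspa1b stretches were identical at 149 of 150 bases and shared a 2-unit element that begins 104 bases before the start. Hsph1 had a 2-unit element 33 bases before the start and a 3-unit element, TTCTGGAAAGTTC, at bases 37 to 49 after it. These positions are from the 1 of its 2 RefSeq starts used above. From the other, 21 bases downstream, they are 54 bases before and bases 16 to 28 after. In Hspe1 a pair of overlapping 3-unit elements began at base -89, and since the Hspd1 gene starts in the opposite direction beside it, one of the Hspd1 windows shared 285 bases, these elements included, with that of Hspe1. Hspa5 held the ER stress element, 65 bases before the start, and no heat shock element, and the 2 Dnajb1 windows held none of the 3 motifs.

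All 10 genes are annotated as protein coding, and their counts cover exons. In NCBIM37 coordinates, the mm9 build of the counts, Hspa1a (chr17:35106144-35109069) and Hspa1b (chr17:35093381-35096183) lie next to each other on the minus strand. Reads of this near-identical pair could go to either gene, so the division between them is uncertain: the ratio of Hspa1a to Hspa1b counts was 1.45 to 1.67 in ILC2 libraries and 0.652 to 2.08 in ILC2p libraries. Hspd1 (chr1:55134679-55145087, minus strand) and Hspe1 (chr1:55144976-55148151, plus strand) overlap at their starts, a stretch that was left out of their counts.

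Per length, Hspa8, Hspa5 and Hsp90ab1 had the highest medians of the 10 genes in both cell types. Hspa8, the constitutive cytosolic HSP70, had a median of 955 RPKM over the 15 libraries (range 507 to 1547). Hspa5, the ER-resident HSP70 also called BiP, had a median of 789 RPKM (559 to 1140), and Hsp90ab1, the constitutive cytosolic HSP90, 669 RPKM (433 to 1490). These 3 ranges overlap. Dnajb1 followed with a median of 257 RPKM and the inducible Hsp90aa1 with 133 RPKM, and both genes stayed below the medians of the first 3 in every library. Lower medians belonged to Hspe1 (86.8 RPKM), Hspa1a (55.2 RPKM), Hspd1 (53.2 RPKM), Hspa1b (37.9 RPKM) and Hsph1 (26.4 RPKM), the cochaperone that recharges HSP70, and these 5 overlapped with each other in range.

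**Figure D1:**
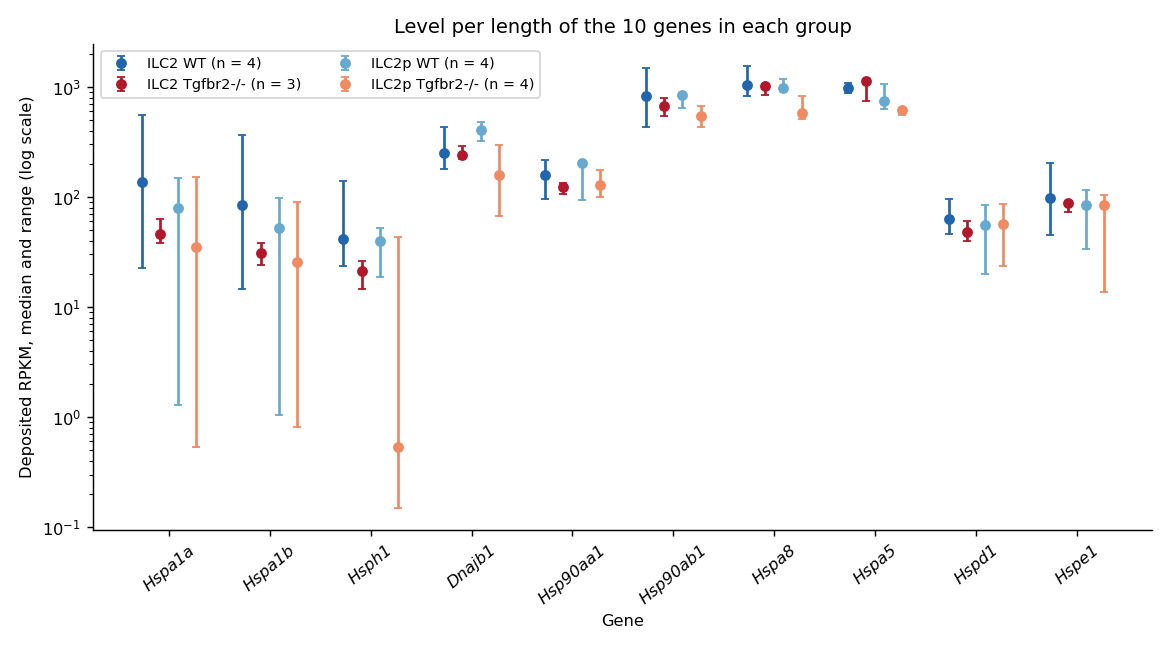
Deposited RPKM of the 10 genes (log axis) in each of 4 groups, with points for medians and bars from the lowest to the highest library. Hspa8, Hspa5 and Hsp90ab1 lie highest, and in Tgfbr2-/- ILC2p the longest bars are those of Hspa1a, Hspa1b and Hsph1, which reach under 1 RPKM.

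The genes also differed in how far they ranged between libraries. Within the 7 ILC2 libraries the highest level was 28.8 times the lowest for Hspa1a, 29 times for Hspa1b and 10.1 times for Hsph1. Without WT experiment 1 replicate 1 these ratios were 8.67, 7.99 and 3.47. For the constitutive genes, over all 7 libraries, it was 1.65 times for Hspa5, 2.19 times for Hspa8 and 3.99 times for Hsp90ab1 (2.36 without that library). In the 8 ILC2p libraries the same ratio reached 325 for Hspa1a, 127 for Hspa1b and 252 for Hsph1, but 1.52 for Hsp90ab1 and 1.89 for Hsp90aa1. Without Tgfbr2-/- experiment 1 replicate 2 it was 135 for Hspa1a, and leaving out 1 library at a time gave at least 93 for Hspa1b and 197 for Hsph1. The inducible HSP70 genes and Hsph1 therefore ranged most in both cell types, and Hsp90ab1 ranged less in ILC2p than in ILC2s. The lowest ILC2p libraries had 15 reads of Hspa1a, 23 of Hspa1b and 8 of Hsph1, and many other genes were missing from single ILC2p libraries, as given above. The share of all genes with a like range was not computed.

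The top of the range in ILC2s belonged to 1 library. WT experiment 1 replicate 1 had the highest level of all 7 ILC2 libraries for 10 of 10 genes, against 23.4% of the 11981 genes tested. The 10 genes summed to 14961 CPM there, and to 5543 to 8436 CPM in the other 6 libraries, which is 1.43% of the reads on genes against 0.622% to 0.836%. For Hspa5 the lead was small, with 2851 CPM against 2849 CPM in Tgfbr2-/- experiment 1 replicate 2. This library stood apart for other genes too, being the highest or the lowest of the 7 for 52.9% of genes tested. Its replicate of the same group, WT experiment 1 replicate 2, had the second highest sum (8436 CPM), and the lowest sum belonged to WT experiment 2 replicate 1, where 7 of the 10 genes were at their lowest (9.63% of genes tested).

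**Figure D2:**
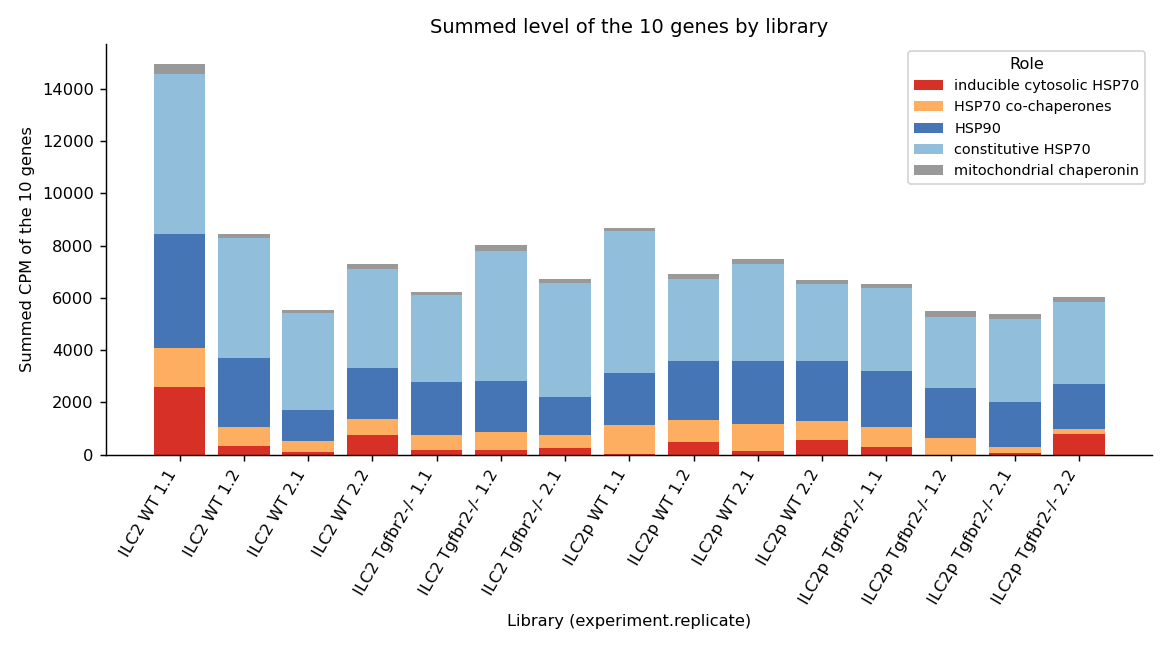
Summed CPM of the 10 genes in each of 15 libraries, as bars stacked by role and named by experiment and replicate. The bar of ILC2 WT experiment 1 replicate 1 reaches 14961 CPM, and the other 14 lie between 5400 and 8674 CPM.

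Hspa1a was measured at 1569 CPM in that library, at 205 CPM in WT experiment 1 replicate 2, and at 54.5 and 473 CPM in WT experiment 2. In Tgfbr2-/- ILC2s it was at 113 and 102 CPM in experiment 1 and at 152 CPM in experiment 2. The WT libraries thus lay on both sides of the Tgfbr2-/- ones, and the genotypes overlapped. Hspa1b ran in parallel, from 35.4 to 1026 CPM in WT and from 65.5 to 91.3 CPM in Tgfbr2-/- ILC2s. The log2 fold change of Tgfbr2-/- over WT was -2.11 ± 0.94 (SE) for Hspa1a and -2.12 ± 0.92 for Hspa1b, and neither was called (adjusted p = 0.898 for both, edgeR quasi-likelihood test). A gene is called here at an adjusted p under 0.1 and a fold change over 1.5. Without WT experiment 1 replicate 1 these values were -0.86 ± 0.67 and -0.90 ± 0.66.

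Hsph1 was the 1 gene of the 10 with no overlap between genotypes within experiments in ILC2s. Its level was 489 and 168 CPM in WT against 81.4 and 48.5 CPM in Tgfbr2-/- libraries of experiment 1, and 70.8 and 96.6 CPM against 62.9 CPM in experiment 2. Of all genes tested, 5.58% had every Tgfbr2-/- library lower in this way and 7.11% every one higher, so that 1 of 10 is near the background. The log2 fold change was -1.55 ± 0.54 (unadjusted p = 0.0196, adjusted p = 0.898, edgeR), and -0.90 ± 0.32 without WT experiment 1 replicate 1. Of the alternatives run, DESeq2 alone called it (adjusted p = 0.051).

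Dnajb1, the HSP40 that delivers clients to HSP70, was at 980, 530, 356 and 496 CPM in WT and at 480, 633 and 430 CPM in Tgfbr2-/- ILC2s. Its log2 fold change was -0.29 ± 0.26, and 0.04 ± 0.20 without the highest library. Hsp90aa1 was at 628, 425, 236 and 397 CPM in WT and at 267, 364 and 300 CPM in Tgfbr2-/- ILC2s. Its log2 fold change was -0.50 ± 0.27, and -0.26 ± 0.25 without the highest library. In both genes the Tgfbr2-/- libraries fell within the WT range, and neither was called.

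Hsp90ab1, the constitutive HSP90, had 3760 and 2224 CPM in WT experiment 1, 943 and 1587 CPM in WT experiment 2, and 1161 to 1768 CPM in Tgfbr2-/- ILC2s. None of the remaining genes was called. The log2 fold change of Hsp90ab1 was -0.57 ± 0.28, beside -0.29 ± 0.24 for Hspa8 and -0.03 ± 0.21 for Hspa5. For the mitochondrial chaperonin it was -0.55 ± 0.33 (Hspd1, which forms the chamber) and -0.54 ± 0.43 (Hspe1, its lid). All 10 estimates were below 0 (Hspa5 at 0.051 with scaling by library size), with a median of -0.54 beside -0.0075 over the 11981 genes tested. Without WT experiment 1 replicate 1 the median of the 10 was -0.21, and Dnajb1 and Hspa5 were above 0. In that fit Hsp90ab1 was at -0.27, Hspa8 at -0.04, Hspd1 at -0.17 and Hspe1 at -0.04.

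**Figure D3:**
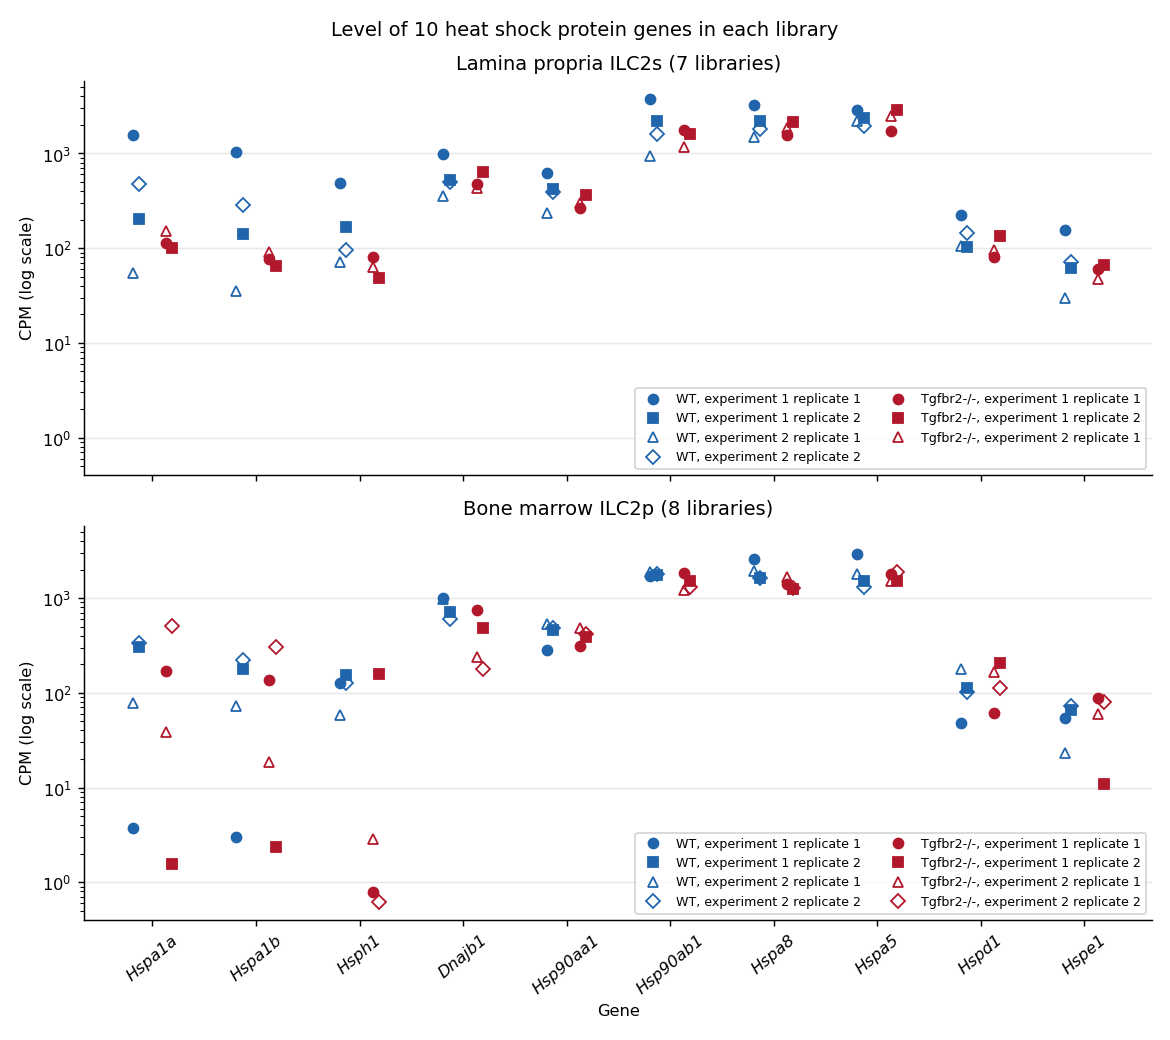
CPM (log axis) of the 10 genes in each ILC2 library (upper panel) and each ILC2p library (lower panel), blue for WT and red for Tgfbr2-/-, filled for experiment 1 and open for experiment 2. The filled blue circle of WT experiment 1 replicate 1 is the highest point for each gene in ILC2s, while in ILC2p the order of libraries changes from gene to gene.

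None of the 10 genes was called for genotype in ILC2s, where 0 of 11981 genes (0%) were called by edgeR, 557 had an unadjusted p under 0.05, and DESeq2 called 338. Experiment 1 alone, with 2 libraries a genotype, gave log2 fold changes of -3.08 ± 0.95 for Hspa1a and -2.36 ± 0.61 for Hsph1, also without a call (adjusted p = 0.525 for both, edgeR). Experiment 2 held 1 Tgfbr2-/- library and was not fitted alone. There the difference of mean log2(CPM + 1), Tgfbr2-/- minus WT, was -0.08 for Hspa1a, -0.14 for Hspa1b and -0.39 for Hsph1, against -2.39, -2.42 and -2.17 in experiment 1. These means rest on WT libraries far apart, at 1569 and 205 CPM of Hspa1a in experiment 1. In experiment 2 they were at 54.5 and 473 CPM, on both sides of the Tgfbr2-/- library (152 CPM), as also for Hspa1b (35.4 and 283 against 91.3 CPM).

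Between the experiments themselves the 10 genes were again on one side in ILC2s. Every log2 change of experiment 2 over experiment 1 was below 0, from -0.17 ± 0.21 for Hspa5 (0.040 with scaling by library size) to -1.19 ± 0.53 for Hsph1, with a median of -0.75 beside -0.0016 over all genes tested. The gene nearest to a call was Hsp90ab1 at -0.98 ± 0.28 (unadjusted p = 0.00766, adjusted p = 0.175, edgeR), which DESeq2 and the fit without a filter called. By edgeR 0 of the 10 were called, with 0.977% of genes called (0.693% lower in experiment 2). That share is 117 genes, and leaving out any 1 of the 7 libraries gave 0 to 10 called genes. Without WT experiment 1 replicate 1 the median of the 10 was -0.23, and Hspa1a (0.43), Hspa1b (0.26) and Hspd1 (0.047) were above 0, and without WT experiment 2 replicate 1 the median was -0.29.

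In BM ILC2p the 10 genes did not move together. Hspa1a was at 3.75 and 302 CPM in WT experiment 1, 170 and 1.56 CPM in Tgfbr2-/- experiment 1, 77.3 and 339 CPM in WT experiment 2, and 38.5 and 505 CPM in Tgfbr2-/- experiment 2. Each group of 4 thus held libraries both near 0 and above 300 CPM, or 1.56 to 505 CPM within the Tgfbr2-/- group alone. The 2 lowest libraries had 42 and 15 reads of Hspa1a, and they are also the ones with the highest shares of missing genes, 14.2% and 13.8%; the part of this in the values was not tested. The log2 fold change was -0.28 ± 1.46 for Hspa1a and -0.18 ± 1.39 for Hspa1b, so the error exceeds the estimate.

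Hsph1 was at 126 and 152 CPM in WT experiment 1 and at 58.8 and 127 CPM in WT experiment 2. In Tgfbr2-/- ILC2p it was at 0.794 and 156 CPM in experiment 1 and at 2.89 and 0.62 CPM in experiment 2. So 3 of 4 Tgfbr2-/- libraries were below every WT library, with 8, 68 and 16 reads, and the other was above all of them. The log2 fold change was -3.27 ± 1.98 (adjusted p = 0.762, edgeR). Without that library, Tgfbr2-/- experiment 1 replicate 2, it was -6.35 ± 1.26 and called (adjusted p = 0.058, edgeR), and experiment 1 alone gave -0.82 ± 2.07 and experiment 2 alone -5.77 ± 1.53. Of the 3 libraries near 0, experiment 1 replicate 1 had 12.1% of genes missing in the sense above, and experiment 2 replicates 1 and 2 had 1.83% and 8.33%, while the neutrophil markers were higher in all 4 Tgfbr2-/- libraries. The part of either in these values was not tested.

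Dnajb1 had the smallest unadjusted p of the 10 in ILC2p. Its level was 1012 and 708 CPM in WT against 739 and 487 CPM in Tgfbr2-/- libraries of experiment 1, and 979 and 594 CPM against 237 and 180 CPM in experiment 2. The genotypes overlapped in experiment 1 and not in experiment 2. The log2 fold change was -1.23 ± 0.40 (unadjusted p = 0.0127, adjusted p = 0.238, edgeR), -0.51 ± 0.40 in experiment 1 and -1.99 ± 0.41 in experiment 2. It was not called by edgeR with the filter on low counts, but was called without that filter and by limma on log2(RPKM + 1). For Hspa8, at 1629 to 2564 CPM in WT and at 1234 to 1671 CPM in Tgfbr2-/- ILC2p, it was -0.50 ± 0.21 (unadjusted p = 0.0411, adjusted p = 0.469, edgeR), and limma called it as well, at -0.72 where the median of all genes was -0.41 (1 added) or -0.59 (0.1 added). The sums of the neutrophil, macrophage and dendritic cell, and mast cell and basophil markers above were higher in the same 4 Tgfbr2-/- libraries. The sum of the ILC2 markers was lower there, and the part of these sums in the values was not tested.

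Smaller estimates or larger errors held for the other genes. Hsp90ab1 was at 1692 to 1866 CPM in WT and at 1224 to 1845 CPM in Tgfbr2-/- ILC2p, a log2 fold change of -0.33 ± 0.19. It was -0.15 ± 0.28 for Hsp90aa1, -0.19 ± 0.24 for Hspa5, 0.35 ± 0.64 for Hspd1 and 0.08 ± 0.97 for Hspe1. None of the 10 was called for genotype in ILC2p by edgeR, where 321 of 9242 genes (3.47%) were called, and none was separated within both experiments, where 5.94% of genes had every Tgfbr2-/- library lower and 8.06% every one higher. The median of the 10 was -0.23 beside -0.10 over all genes tested. Scaling by library size alone moved the median of all genes to -0.31 and that of the 10 to -0.54.

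**Figure D4:**
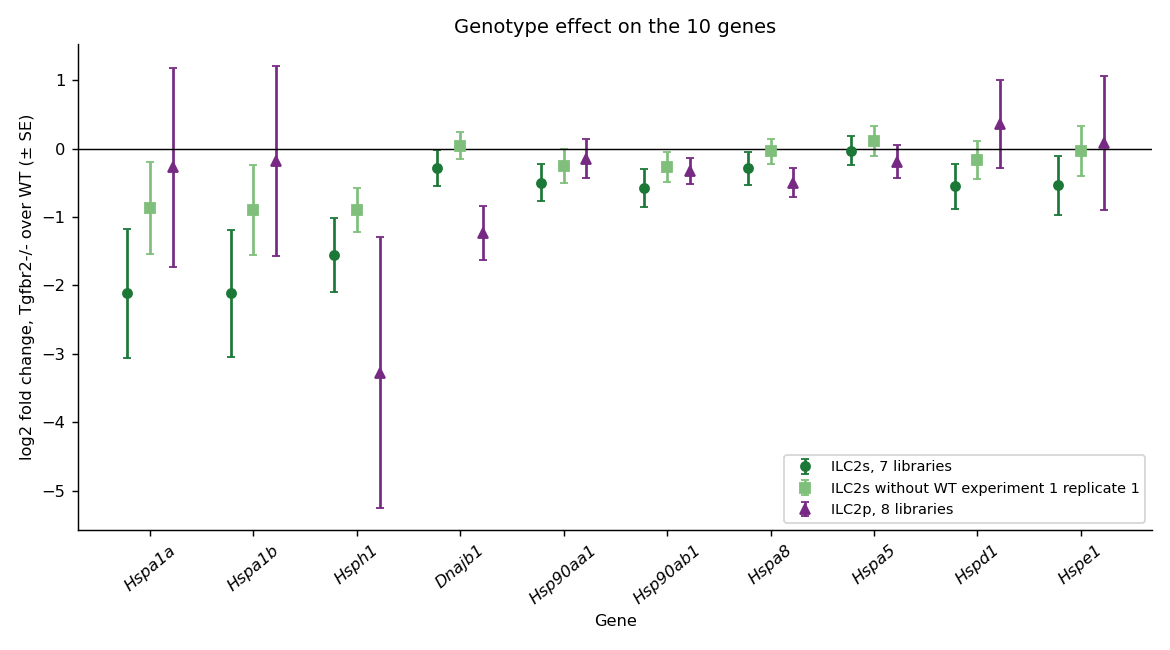
Log2 fold change of Tgfbr2-/- over WT with its SE for the 10 genes, in ILC2s (7 libraries), in ILC2s without WT experiment 1 replicate 1, and in ILC2p (8 libraries). Leaving out that library brings Hspa1a from -2.11 to -0.86 and Hsph1 from -1.55 to -0.90, and in ILC2p the longest bars belong to Hsph1, Hspa1a and Hspa1b.

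Between experiments in ILC2p, 0 of the 10 genes were called by edgeR, as were 0 of 9242 genes (0%), of which 288 had an unadjusted p under 0.05 and DESeq2 called 397. The log2 changes of experiment 2 over experiment 1 ran from -3.07 ± 1.98 for Hsph1 to 1.00 ± 1.47 for Hspa1a, with -0.89 ± 0.39 for Dnajb1 (adjusted p = 0.999 for each, edgeR). Hsph1 was at 0.030 without Tgfbr2-/- experiment 1 replicate 2 and Hspa1a at -0.15 without Tgfbr2-/- experiment 2 replicate 2. The genotype effect itself was also compared between the cell types. It differed by -1.95 ± 1.89 for Hspa1b, 0.95 ± 0.50 for Dnajb1 and 1.74 ± 2.02 for Hsph1 (ILC2s minus ILC2p). None of the 10 was called (adjusted p = 0.825, 0.502 and 0.876 for these 3, edgeR), with 0.992% of 12806 genes called (127 genes, a count that moved widely on leaving out 1 library, as given below). In that fit the median of all genes was 0.31 and that of the 10 was -0.30. The latter was 0.022 with scaling by library size, 0.083 and 0.090 with limma (added 1 and 0.1) and -0.051 without WT ILC2 experiment 1 replicate 1, each below the median of all genes in the same fit. On leaving out 1 library Hspa1b ran from -3.41 (without WT ILC2p experiment 1 replicate 2) to -0.77 (without WT ILC2 experiment 1 replicate 1), and Hsph1 was at 0.55 without Tgfbr2-/- ILC2p experiment 2 replicate 2. Without Tgfbr2-/- ILC2p experiment 1 replicate 2 the difference for Hsph1 was 4.80 and called.

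In the 7 ILC2 libraries the 45 pairs of genes had a median Pearson r of 0.82 on log2(CPM + 1). The highest was 0.999 for Hspa1a with Hspa1b. In the 8 ILC2p libraries the median was -0.02. These coefficients are descriptions over libraries that share 2 experiments. Without WT experiment 1 replicate 1 the median over the other 6 ILC2 libraries was 0.48, with single pairs from -0.35 to 0.997. Hspa5 was the least alike in ILC2s, with r = 0.27 to Hspa1a and to Hsph1.

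With the mean log2 level of Hspa1a, Hspa1b, Hsph1, Dnajb1 and Hsp90aa1 as the profile, the genes outside the 10 most like it among 8287 genes in the 7 ILC2 libraries were Cst3 (r = 0.988) and Hspa1l (r = 0.984). Hspa1l is another HSP70 gene of the Hspa1a cluster, at 5.63 to 98.6 CPM, and it may share reads with Hspa1a. Magoh, Zfx, Pak1, Rptor, Slc35e2, Parvg, Slc7a6 and Hps3 came next, with r from 0.983 to 0.956. This ranking includes WT experiment 1 replicate 1, and its order without that library was not tested. In ILC2p the 10 most alike of 8834 genes, from Elp3 (r = 0.934) to Tmem80 (r = 0.911), were each under 1 CPM in at least 1 library and include no chaperone of the lists used here.

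Between cell types none of the 10 genes was called by edgeR in either genotype. In WT cells the log2 change of ILC2s over ILC2p ran from -0.48 ± 0.41 for Dnajb1 to 1.67 ± 1.28 for Hspa1a (0.44 without WT ILC2 experiment 1 replicate 1, where Dnajb1 was at -0.84), and 0 of 10 were called, with 2.36% of 12806 genes called by edgeR. The median of the 10 was 0.36, and -0.017 without that library. In Tgfbr2-/- cells it ran from -0.57 ± 1.30 for Hspa1b to 0.68 ± 1.33 for Hsph1, again with 0 of 10 called, where 11.7% of genes were. Nearest to a call there were Hspa5 at 0.51 ± 0.25 (adjusted p = 0.244, edgeR) and Hspa8 at 0.42 ± 0.25 (adjusted p = 0.361, edgeR), which limma and scaling by library size called. These settings also moved the median of all genes, from -0.04 to 0.23 with scaling by library size and to 0.59 and 1.31 with limma (added 1 and 0.1), against 0.67 for Hspa8 and 0.72 for Hspa5 with limma, so that with 0.1 added both were below it. Limma on log2(RPKM + 0.1) also called Hsph1 (3.91), and without Tgfbr2-/- ILC2p experiment 1 replicate 2 its log2 change was 5.47 and called by edgeR. The neutrophil markers, at 78986 to 95060 CPM in Tgfbr2-/- ILC2p and at most 1.46 CPM in Tgfbr2-/- ILC2s, move with this comparison, and their part in these values was not tested. Cell type, tissue, host and experiment cannot be told apart in these comparisons.

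The rest of the chaperone network was read from lists of genes. Hsf1, the gene of the main heat shock factor, ran from 110 to 229 CPM in WT and from 125 to 136 CPM in Tgfbr2-/- ILC2s, highest in WT experiment 1 replicate 1, with a log2 fold change of -0.28 ± 0.27. In ILC2p Hsf1 was at 110 to 201 CPM in WT and at 0.929 to 66.1 CPM in Tgfbr2-/- libraries, without overlap between the groups, but at -1.85 ± 1.06 it was not called (adjusted p = 0.735, edgeR). Being lower within both experiments, a looser measure than no overlap between the whole groups, held for 5.94% of all genes tested there. The share without overlap between the whole groups was not computed. The sums of the myeloid markers above were higher in these 4 libraries, and their part in the Hsf1 values was not tested. Hsf2, a second factor of the family, was at 3.21 to 7.21 CPM in ILC2 libraries. In ILC2p it was at 4.49 to 23.0 CPM in WT and at 0.0774 to 10.8 CPM in Tgfbr2-/- libraries, overlapping, with a log2 fold change of -3.10 ± 1.92 (adjusted p = 0.778, edgeR).

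For genotype in ILC2s 0 genes were called in any of the 9 other lists. Among 12 HSP90 cochaperones the smallest unadjusted p belonged to Stip1, which links HSP70 to HSP90, with 171 to 458 CPM in WT and 122 to 186 CPM in Tgfbr2-/- ILC2s (log2 fold change -0.94 ± 0.30, adjusted p = 0.898, edgeR). Ahsa1, the activator of the HSP90 ATPase, was at -0.47 ± 0.19 (adjusted p = 0.898, edgeR). Both genes were higher in each experiment 1 WT library than in the other ILC2 libraries. Of the 12 HSP90 cochaperones, 5 had estimates above 0 (median -0.13). All 8 subunits of the cytosolic chaperonin TRiC had estimates below 0 (median -0.27; 7 of 8 with scaling by library size), as did 15 of 17 ER chaperones (median -0.19; 11 of 17). Without WT experiment 1 replicate 1, 5 of 8 and 8 of 17 were below 0. Of the other cytosolic HSP70 and HSP40 genes 15 of 21 were above 0 (median 0.10), and 9 of 21 without Tgfbr2-/- experiment 1 replicate 2. With all libraries, 5927 of the 11981 genes tested were above 0, and 0 of 14 immediate early genes were (median -0.22).

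The library that was highest for the 10 genes was not highest for every chaperone. WT experiment 1 replicate 1 led the 7 ILC2 libraries for 6 of 8 TRiC subunits, 5 of 12 HSP90 cochaperones, 8 of 17 ER chaperones and 8 of 14 immediate early genes. It led for 4 of 21 other cytosolic HSP70 and HSP40 genes and for 2 of 10 mitochondrial chaperones and proteases, against the 23.4% of all genes. It also led for 1 of 9 regulators of the unfolded protein response, 1 of 3 heat shock factors and 1 of 5 small heat shock proteins. Of the 21 other cytosolic genes 8 were at their lowest in this library, as were 29.4% of all genes tested. The TRiC subunits summed to 2660 CPM there and to 1425 to 1801 CPM in the other 6 libraries, and the immediate early genes to 80609 CPM against 58118 to 72496 CPM. Among markers of other cells, the 4 ILC3 markers summed to 494 CPM there, led by Il22, and to 21.4 to 265 CPM elsewhere. Of the mast cell and basophil markers, Mcpt8, Prss34 and Ms4a2 were at 0 CPM in every ILC2 library. That list summed to 493 CPM in WT experiment 1 replicate 1, with Kit alone at 488 CPM, against 190 to 333 CPM elsewhere. The epithelial markers summed to 6.79 CPM there and to 15.9 to 1454 CPM elsewhere, highest in Tgfbr2-/- experiment 2, and the neutrophil markers to 0.421 CPM. The part of these in the levels of the 10 genes was not tested.

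For genotype in ILC2p, 1 of 9 tested regulators of the unfolded protein response was called. Ppp1r15a, which lets translation resume after stress, fell with a log2 fold change of -1.11 ± 0.26 (adjusted p = 0.0769, edgeR), from 2328 to 4612 CPM in WT to 1063 to 1924 CPM in Tgfbr2-/- ILC2p. The call was lost on leaving out any of 6 of the 8 libraries, all but Tgfbr2-/- experiment 2 replicate 2 and WT experiment 1 replicate 2, with values from -0.88 to -1.20. The immediate early genes, transcribed within minutes of a stimulus, had 6 of 13 called lower, where 0.866% of genes were. They include Jund (-1.97 ± 0.26), Egr1 (-1.96 ± 0.34), Dusp1 (-1.25 ± 0.25) and Junb (-1.15 ± 0.22), with adjusted p from 0.0040 to 0.0413 (edgeR). On leaving out each library in turn Jund and Egr1 stayed called, Junb was not called without Tgfbr2-/- experiment 1 replicate 1 (-1.06), and Dusp1 was not called without WT experiment 2 replicate 1 (-1.16) or without Tgfbr2-/- experiment 1 replicate 1 (-1.17), experiment 1 replicate 2 (-1.24) or experiment 2 replicate 1 (-1.14). No gene of the heat shock factor, cytosolic, TRiC, small heat shock protein, cochaperone, ER or mitochondrial lists was called. The ER chaperone nearest to it was Calr, with 166 to 339 CPM in WT and 519 to 758 CPM in Tgfbr2-/- ILC2p (1.19 ± 0.31, adjusted p = 0.108, edgeR). The sums of the neutrophil, macrophage and dendritic cell, and mast cell and basophil markers were higher in the same 4 Tgfbr2-/- libraries. The sum of the ILC2 markers was lower there, and the part of these sums in the values was not tested.

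Between cell types a few other listed genes were called. In Tgfbr2-/- cells Dnaja1, an HSP40 of the cytosol, was higher in ILC2s by 1.72 ± 0.37 on the log2 scale (adjusted p = 0.0137, edgeR), at 264 to 530 CPM against 74 to 150 CPM. Ppp1r15a was higher by 1.35 ± 0.26 (adjusted p = 0.00715, edgeR). Cryaa, a small heat shock protein, was called higher as well (adjusted p = 0.0622, edgeR), with 3.93 to 16.7 CPM in ILC2s and 0 CPM in each Tgfbr2-/- ILC2p library, a call that was lost on leaving out any of the 3 Tgfbr2-/- ILC2 libraries or Tgfbr2-/- ILC2p experiment 2 replicate 2. The neutrophil markers summed to 78986 to 95060 CPM in the Tgfbr2-/- ILC2p libraries and to 0.123 to 1.46 CPM in the Tgfbr2-/- ILC2 libraries compared here, and their part in these values was not tested. Dnaja1, Ppp1r15a and Cryaa were the 3 called genes of the chaperone and unfolded protein response lists, where 8.21% of all genes were called higher and 3.44% lower. In WT cells none of these lists had a called gene, where 1.65% of genes were called higher and 0.711% lower. The immediate early genes split in both genotypes, with 3 higher and 4 lower in WT and 6 higher and 2 lower in Tgfbr2-/- cells. Nr4a1 was higher in ILC2s by 5.96 ± 0.72 in WT and 6.52 ± 0.75 in Tgfbr2-/- cells, and Jun was lower at -1.80 ± 0.20 and -1.10 ± 0.21. In ILC2s, Fosb was the 1 listed gene called between experiments, at -0.97 ± 0.14 (adjusted p = 0.0727, edgeR), where 0.977% of all genes tested were called. Jund was the 1 listed gene whose genotype effect differed between cell types, by 1.85 ± 0.39 (adjusted p = 0.0552, edgeR), where 0.992% of all genes tested were called. Fosb was not called on leaving out any of the 7 ILC2 libraries (-0.85 to -1.06), nor Jund without WT ILC2 experiment 1 replicate 2 (1.69), WT ILC2 experiment 2 replicate 2 (1.74), Tgfbr2-/- ILC2 experiment 1 replicate 2 (1.80), Tgfbr2-/- ILC2 experiment 2 replicate 1 (1.73) or WT ILC2p experiment 2 replicate 1 (1.59).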

How the data were processed

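RNA-seq was carried out on 15 libraries of sorted mouse LP ILC2s and BM ILC2p, with RNA extracted by the RNeasy Plus Micro kit. The authors mapped reads to mm9 with TopHat, keeping reads with multiple hits (the labels name Bowtie2, version not given in the sources used here). Per the file headers, counts were made by the script rpkmforgenes on RefSeq genes over the full transcript, leaving out stretches where genes of different names overlap. The deposited RPKM values were made by the authors in the same step, per length and per normalization read. Whether strand was used is not given in the sources used here. Of 24690 entries, 205 join several genes, and 0 pairs of libraries had identical counts.

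Counts were tested here with edgeR 4.0.16 (R 4.3.3; TMM factors, filterByExpr, quasi-likelihood test, Benjamini-Hochberg adjustment over all genes tested), with experiment as a covariate for genotype within a cell type, genotype for experiments, and all 15 libraries for cell types and for the difference of genotype effects. Called genes had an adjusted p under 0.1 and a fold change over 1.5. The same comparisons were repeated with DESeq2 1.42.0, with limma 3.58.1 (log2 of RPKM + 1 or + 0.1), and by edgeR with scaling by library size, no low-count filter, no covariate, a replicate block, single experiments, only the groups compared, and leaving out each library. The fit on experiment 2 alone in ILC2p, the correlations without 1 library and the ranges of levels on leaving out each library were added after seeing the data. On simulated counts with 200 genes changed by 2 on the log2 scale, 97% were recovered for genotype in ILC2s (15 false calls), 100% for genotype in ILC2p (21) and 99.5% for cell type in WT (15). The simulation gave every gene the same dispersion, with no experiment effect and no genes missing from single libraries. Its shares therefore do not carry over to genes that vary more between libraries, and a missing call is not evidence of no change. Nothing says that libraries came from separate mice, so p-values measure the spread between these libraries, which may be technical.

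The members and lists were chosen with earlier results of these data known. Named were all members, Tgfbr2, Hsf1 and Hsf2, and by rule at most 4 called genes per list, comparison and direction (where none was called, at most 2 by unadjusted p), of which those in the text are a part, and the 10 genes most alike in each cell type at a mean of 10 CPM or more. Positions are from GENCODE vM1 (NCBIM37), and promoters from RefSeq (GRCm38.p6). Figures were drawn with matplotlib 3.10.9.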

Additional observations from a re-analysis of the deposited data

Results flagged for a closer look

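For 3 of the 10 genes every Tgfbr2-/- ILC2 library was below the WT mean of its experiment in experiment 1 and above it in experiment 2, on the log2(CPM + 1) scale. The difference between the experiments' effects on this scale was -0.420 for Dnajb1 (-0.39 and 0.03), -0.711 for Hspa8 (-0.54 and 0.17) and -0.674 for Hspe1 (-0.64 and 0.04). On the CPM scale Hspe1 in the Tgfbr2-/- library of experiment 2 (47.7 CPM) was below the mean of its WT libraries, which had 30.0 and 71.7 CPM. These differences were not tested, and experiment 2 holds 1 Tgfbr2-/- library. WT experiment 1 replicate 1, the library with the highest level of these genes, is in experiment 1. The other WT library of experiment 1 was at 530 CPM for Dnajb1, between the Tgfbr2-/- libraries (480 and 633 CPM). For Hspe1 it also lay between them (62.5 against 60.1 and 66.7 CPM), and for Hspa8 above both (2202 against 1583 and 2147 CPM). So for Dnajb1 and Hspe1 the direction in experiment 1 rests on 1 library. For Hspa5 the means also lay in opposite directions (-0.23 and 0.28), but not every library did. Among 30 sets of 4 libraries of 1 group and gene, 1 held a value far from the others by Dixon's criterion on the CPM scale, which chance meets in about 1 of 20 such sets. It was Hsph1 in Tgfbr2-/- ILC2p, where the gap between the highest library (experiment 1 replicate 2, 156 CPM) and the next was 0.985 of the whole range. On the log2(CPM + 1) scale 0 of the 30 did, with 0.808 for this set.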

How the results depend on the processing

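No member was called by edgeR in any of the 7 comparisons, and alternatives changed this in the following cases. DESeq2 called 1 member for genotype in ILC2s (Hsph1) and 1 between experiments in ILC2s (Hsp90ab1), and without a low-count filter 1 was called for experiment in ILC2s (Hsp90ab1) and 1 for genotype in ILC2p (Dnajb1). Limma called 2 for genotype in ILC2p with either pseudocount, and 2 (log2(RPKM + 1)) or 3 (log2(RPKM + 0.1)) between cell types in Tgfbr2-/- cells, where scaling by library size called 2. Leaving out 1 library gave 0 to 1 members for genotype in ILC2p, for cell type in Tgfbr2-/- cells and for the difference of genotype effects, in each case Hsph1 without Tgfbr2-/- ILC2p experiment 1 replicate 2.

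Counts over all genes moved more. DESeq2 called 338 genes for genotype in ILC2s, 1229 for genotype in ILC2p, 1347 and 397 between experiments in ILC2s and ILC2p, 950 and 2529 between cell types in WT and Tgfbr2-/- cells, and 1518 for the difference of genotype effects. Without a filter the counts were 3 for genotype in ILC2s, 320 and 5 between experiments in ILC2s and ILC2p, 988 between cell types in Tgfbr2-/- cells and 259 for the difference of effects. Library size scaling gave 23 between experiments in ILC2s and 196 for the difference of effects. Limma on log2(RPKM + 0.1) gave 255 between experiments in ILC2s, 458 and 2480 between cell types in WT and Tgfbr2-/- cells, and 360 for the difference of effects (382 with log2(RPKM + 1)). For genotype in ILC2p, experiment 1 alone gave 38 and experiment 2 alone, a fit added after seeing the data, 77. Leaving out 1 library gave 179 (without WT experiment 2 replicate 1) to 319 for genotype in ILC2p, 0 (without WT or Tgfbr2-/- experiment 2 replicate 1) to 10 between experiments in ILC2s, 156 (without WT ILC2p experiment 1 replicate 2) to 370 between cell types in WT and 596 (without Tgfbr2-/- ILC2 experiment 1 replicate 2) to 1904 in Tgfbr2-/- cells, and 14 (without Tgfbr2-/- ILC2 experiment 2 replicate 1) to 407 (without Tgfbr2-/- ILC2p experiment 2 replicate 1) for the difference of effects. The cause of these shifts was not tested.

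Some log2 fold changes turned sign. For genotype in ILC2s, leaving out 1 library gave -0.48 to 0.039 for Dnajb1, -0.47 to 0.091 for Hsf1 and -0.23 to 0.18 for Hspa5, above 0 without WT experiment 1 replicate 1 (for Hspa5 also without Tgfbr2-/- experiment 1 replicate 1). Hspa5 was at 0.051 with library size scaling and 0.023 with limma at either pseudocount. For genotype in ILC2p, leaving out 1 library gave -1.44 to 1.52 for Hspa1a, -1.37 to 1.31 for Hspa1b, -0.33 to 0.065 for Hspa5, -0.18 to 0.62 for Hspd1 and -0.50 to 0.51 for Hspe1. Experiment 2 alone gave 0.29 for Hspa1a, 0.028 for Hspa1b, 0.031 for Hspa5 and -0.070 for Hspd1. Hspe1 was at -0.33 in experiment 1 alone, -0.17 with library size scaling, -0.36 and -0.37 with limma (added 1 and 0.1) and -0.044 with the replicate block. Between experiments, Hspa5 in ILC2s was at 0.040 with library size scaling and with limma at either pseudocount. Leaving out 1 ILC2 library gave -1.81 to 0.43 for Hspa1a, -1.93 to 0.26 for Hspa1b and -0.55 to 0.047 for Hspd1, above 0 without WT experiment 1 replicate 1 in each case, and leaving out 1 ILC2p library gave -0.15 to 2.83 for Hspa1a and -4.21 to 0.030 for Hsph1. Between cell types in Tgfbr2-/- cells Hspa1b was at 1.01 and 1.27 with limma (added 1 and 0.1) and at -0.98 to 0.56 on leaving out 1 library.

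Libraries of 1 number did not deviate together (r of deviations from group means -0.0459 in ILC2 experiment 1, -0.0101 and -0.0274 in ILC2p experiments 1 and 2), so the numbers were not taken to pair libraries. With the replicate block 175 genes were called for genotype in ILC2p and 0 in ILC2s, and 0 members in both. Scaling by library size in place of TMM moved the median log2 change of all genes from -0.10 to -0.31 for genotype in ILC2p, -0.0016 to 0.20 and 0.11 to 0.25 between experiments in ILC2s and ILC2p, -0.04 to 0.23 between cell types in Tgfbr2-/- cells and 0.31 to 0.60 for the difference of effects. With limma it was at 0.095 and 0.15 (added 1 and 0.1) for genotype in ILC2s, -0.41 and -0.59 for genotype in ILC2p, 0.18 and 0.27 between experiments in ILC2s, 0.34 and 0.57 in ILC2p, 0.13 and 0.33 between cell types in WT, 0.59 and 1.31 in Tgfbr2-/- cells, and 0.46 and 0.85 for the difference of effects. The 1.27 of Hspa1b with 0.1 added is thus below the median of all genes in its fit. DESeq2 gave 0.027 for genotype in ILC2p, -0.024 between experiments in ILC2p, -0.23 between cell types in Tgfbr2-/- cells and 0.15 for the difference of effects. Values at few reads, such as the 8 reads of Hsph1 in Tgfbr2-/- ILC2p experiment 1 replicate 1, carry a large counting error.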
